A study of Saccharomyces cerevisiae with 24 samples.

Results

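The genes described here are 10 genes of nitrogen catabolite regulation and of the use of γ-aminobutyrate (GABA) in budding yeast: UGA1 (YGR019W), UGA2 (YBR006W), UGA3 (YDL170W), UGA4 (YDL210W), PUT1 (YLR142W), GAP1 (YKR039W), MEP2 (YNL142W), DAL5 (YJR152W), GAT1 (YFL021W) and DAL80 (YKR034W). They were taken by systematic name from a table of raw read counts with 6157 features, and all 10 were present and passed the filter on low counts. UGA2 was chosen by its measured level in these data, which was higher in pho92Δ than in wild type; for the other 9 the choice states no measured value. Pho92 recognises N6-methyladenosine in mRNA through its YTH domain.

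Poly(A) RNA of diploid cells in sporulation medium was sequenced in 24 libraries. Copper sulfate was added to the medium at 50 µM, 3 h after transfer. The time of collection is not given in the sources used here. The listed components of the medium, potassium acetate and raffinose, hold no nitrogen. Every strain was MATa/alpha with ho::LYS2, the lys2 and ura3 alleles, and hisG insertions in leu2, his3 and trp1. In 6 groups the native gene was replaced (hyg::pho92) and a transgene at trp1 expressed HA-PHO92 from CUP1, a promoter that responds to copper. The encoded protein lacked residues 35 to 42 (Δ35–42), carried L35A, L38P, I39A or W177A, or was wild type (CUP1-PHO92). The remaining groups were the deletion pho92::HYG (pho92Δ) and the wild type (WT). Each group had 3 libraries. The table header gives 1 strain number per group, but gives W177A the number of CUP1-PHO92, 10829. It also gives the W177A libraries a group name that contains 'delete'. The genotype label of I39A reads L39A. The groups follow the titles. Nothing in the labels says that the 3 libraries came from separate starting cultures, so p-values measure the spread between these libraries.

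Library totals ran from 16108079 to 36733806 counts, and no member had fewer than 179 counts in any library. The table header marks L38P replicate 2 and W177A replicate 1 as batch B and all other libraries as batch A. W177A replicate 1 also had the highest total. PHO92 itself had 1, 14 and 1 counts in pho92Δ, against 17565, 17039 and 19629 in WT. In the 6 CUP1 strains its group means lay between 9158 and 12690 CPM (counts scaled to library size with TMM factors), against 859 ± 61.1 CPM in WT (SD, n = 3). The 9 early meiotic genes of a marker list summed to between 8209 and 22370 CPM per library, so transcripts of meiotic entry were present in all 24. L38P stood apart on that list: the sum was 8209 to 12070 CPM in L38P, against 16590 to 20460 CPM in CUP1-PHO92. In RNA from whole cultures, fewer cells that express a gene and less RNA per cell cannot be told apart.

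Nitrogen catabolite repression keeps genes for poor nitrogen sources off while a good source is present. When nitrogen is short, the GATA-type zinc-finger activators Gln3 and Gat1 enter the nucleus and bind GATAAG sequences in promoters, and the GATA-type repressors Dal80 and Gzf3 compete for the same sites. GABA is taken up by permeases that include Uga4. The transaminase Uga1 converts it to succinate semialdehyde, which the dehydrogenase Uga2 oxidises to succinate, and Uga3 is a zinc-cluster activator of these genes.

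The promoters of 5 of the 10 genes are given. These genes differ in GATAAG content and, as shown further on, in how much they varied between libraries. As the genes were picked for these differences, their promoters do not show how motif and spread go together over the 10. Each is the 300 bases before the start codon, read 5′ to 3′ on the coding strand (the plus strand for all 5) from the RefSeq genome R64 of the reference strain S288C. The build behind the counts and the bases of the strains used here are not given in the sources used here. GATAAG on the coding strand, or CTTATC where the motif lies on the opposite strand, is in capitals.
UGA2 (R64, chrII:246710-247009, + strand): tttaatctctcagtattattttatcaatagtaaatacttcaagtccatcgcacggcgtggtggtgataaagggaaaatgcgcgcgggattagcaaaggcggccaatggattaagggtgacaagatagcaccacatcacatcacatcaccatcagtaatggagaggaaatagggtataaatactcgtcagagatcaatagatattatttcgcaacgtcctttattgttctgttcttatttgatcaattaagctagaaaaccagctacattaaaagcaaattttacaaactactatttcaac
UGA1 (R64, chrVII:524929-525228, + strand): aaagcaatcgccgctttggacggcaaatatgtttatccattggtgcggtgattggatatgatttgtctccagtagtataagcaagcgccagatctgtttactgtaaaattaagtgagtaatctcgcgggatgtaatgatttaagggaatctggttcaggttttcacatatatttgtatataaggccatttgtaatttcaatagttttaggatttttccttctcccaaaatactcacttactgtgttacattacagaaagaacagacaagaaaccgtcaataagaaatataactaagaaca
GAP1 (R64, chrXI:514763-515062, + strand): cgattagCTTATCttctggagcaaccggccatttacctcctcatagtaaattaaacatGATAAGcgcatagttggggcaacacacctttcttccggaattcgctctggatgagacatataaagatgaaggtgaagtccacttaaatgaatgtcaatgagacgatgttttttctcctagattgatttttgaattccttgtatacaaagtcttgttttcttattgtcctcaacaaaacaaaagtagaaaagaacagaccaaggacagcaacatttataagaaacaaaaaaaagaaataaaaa
MEP2 (R64, chrXIV:357153-357452, + strand): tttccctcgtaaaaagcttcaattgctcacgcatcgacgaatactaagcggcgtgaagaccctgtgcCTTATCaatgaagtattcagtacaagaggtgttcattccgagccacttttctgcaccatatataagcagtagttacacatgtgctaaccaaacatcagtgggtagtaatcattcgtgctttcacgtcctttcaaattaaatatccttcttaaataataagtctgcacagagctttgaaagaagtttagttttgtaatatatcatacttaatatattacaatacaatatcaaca
DAL80 (R64, chrXI:506598-506897, + strand): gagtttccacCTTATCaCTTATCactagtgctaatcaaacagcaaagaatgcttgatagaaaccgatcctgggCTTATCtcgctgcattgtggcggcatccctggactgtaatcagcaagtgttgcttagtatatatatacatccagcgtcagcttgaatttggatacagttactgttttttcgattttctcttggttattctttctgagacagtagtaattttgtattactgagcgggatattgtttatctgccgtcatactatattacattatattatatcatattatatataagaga

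UGA1, UGA2 and UGA4 had no GATAAG on either strand of this window. UGA3, MEP2, DAL5 and PUT1 had 1 each, GAP1 had 2, DAL80 had 3 and GAT1 had 4, of which the last 3 overlap each other by 1 base. Among 5617 genes of the table with such a window, 14.7% held at least 1 GATAAG and 1.51% held at least 2. Of the 10 members, 7 held at least 1. A match describes these letters only; it shows no binding, and its absence from the window says nothing of sites further away.

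Per kb of coding sequence, the amino acid permease gene GAP1 was the most abundant member in WT, at 311 ± 156 CPM per kb (SD, n = 3). MEP2, which encodes an ammonium permease, followed at 187 ± 128 CPM per kb, and UGA1 at 134 ± 17.4 CPM per kb (SD, n = 3 each). UGA2 had 44.8 ± 5.07 CPM per kb, and DAL80 was the least abundant with 25.0 ± 5.23 CPM per kb (SD, n = 3 each). The transcript of the GABA transaminase was thus more abundant per length than that of the dehydrogenase after it.

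UGA2 was higher in 4 of the 5 mutants than in CUP1-PHO92, with little spread within groups. It had 113, 105 and 118 CPM in Δ35–42, against 76.8, 70.3 and 69.7 CPM in CUP1-PHO92. In L35A it had 98.4, 88.0 and 104 CPM, in L38P 113, 133 and 122 CPM, and in W177A 149, 159 and 154 CPM. In each of these 4 mutants all 3 libraries were above all 3 of CUP1-PHO92. In I39A it had 79.5, 86.8 and 90.2 CPM, just above the CUP1-PHO92 range without overlap. In pho92Δ the values were 120.0, 118 and 124 CPM, against 67.7, 58.9 and 74.0 CPM in WT.

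**Figure D1:**
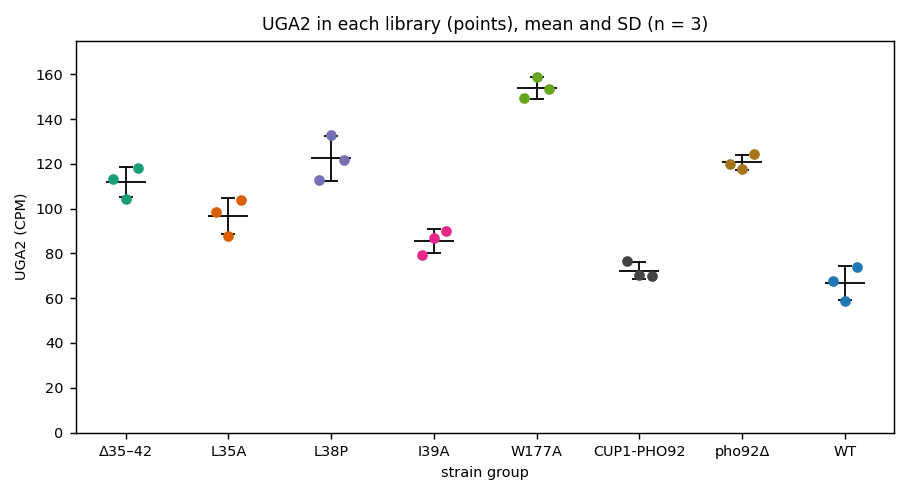
UGA2 in CPM (linear axis from 0) for each of the 24 libraries by strain group; points are libraries, bars the mean and SD of 3. W177A stands highest at 149 to 159 CPM, while CUP1-PHO92 and WT are lowest, between 58.9 and 76.8 CPM.

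Relative to CUP1-PHO92, UGA2 rose in W177A by a log2 value of 1.09 (SE 0.0905, adjusted p 2.19e-07) and in L38P by 0.76 (SE 0.0901, adjusted p 9.85e-06; edgeR quasi-likelihood test, Benjamini-Hochberg over 5698 features, threshold 0.05). It rose in Δ35–42 by 0.63 (SE 0.0900, adjusted p 0.000109) and in L35A by 0.42 (SE 0.0899, adjusted p 0.00297; edgeR). These are rises of 2.13, 1.69, 1.55 and 1.34 times. The group means in these 4 comparisons use none of the pho92Δ or WT libraries that led to the choice of UGA2. Those libraries do enter the shared fit that gives the spread, so the p-values are not independent of them. The gene was also chosen with all results known. In I39A the log2 fold change was 0.24 (SE 0.0899, adjusted p 0.290, edgeR), not past the threshold. In one test for any difference among the 6 CUP1 strains, UGA2 had an F of 37.8 (adjusted p 1.66e-07, edgeR).

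As a description only, UGA2 had a log2 fold change of 0.85 (SE 0.0902) in pho92Δ against WT, the contrast behind its choice, and -0.74 (SE 0.0901) in CUP1-PHO92 against pho92Δ. Ordered by mean, the groups ran from W177A with 154 ± 4.75 CPM through L38P with 122 ± 10.1, pho92Δ with 121 ± 3.35, Δ35–42 with 112 ± 6.85, L35A with 96.7 ± 8.05, I39A with 85.5 ± 5.46 and CUP1-PHO92 with 72.3 ± 3.92 to WT with 66.9 ± 7.57 CPM (SD, n = 3 each). Of the 7 pairs of neighbours in this order, 3 had ranges that did not overlap: W177A and L38P, Δ35–42 and L35A, and I39A and CUP1-PHO92. L38P and pho92Δ, pho92Δ and Δ35–42, L35A and I39A, and CUP1-PHO92 and WT overlapped. All 3 W177A libraries were also above the 3 of pho92Δ, whose highest value was 124 CPM. The share of all features whose ranges separate in this way was not computed, for UGA2 or for the other members. As UGA2 was chosen for a difference between groups, nothing is read from its count.

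UGA1, the enzyme before Uga2, moved over a smaller range. It had 279, 269 and 247 CPM in Δ35–42, 257, 251 and 254 CPM in L35A and 255, 292 and 266 CPM in W177A, against 229.8, 200.3 and 179.6 CPM in CUP1-PHO92. All 9 of those mutant libraries were above all 3 of CUP1-PHO92, though the share of all features that do the same was not computed. The log2 fold change was 0.42 in W177A (SE 0.0992, adjusted p 0.00450), 0.38 in Δ35–42 (SE 0.0992, adjusted p 0.0104) and 0.32 in L35A (SE 0.0991, adjusted p 0.0248; edgeR). Neither L38P (0.17, adjusted p 0.159) nor I39A (0.19, adjusted p 0.428; edgeR) passed the threshold. The call in Δ35–42 was lost without CUP1-PHO92 replicate 3 (adjusted p 0.0679), and that in L35A without CUP1-PHO92 replicate 2 or 3 or L35A replicate 1 (adjusted p 0.0529 to 0.147; edgeR). Both were lost in a fit of only the libraries compared (adjusted p 0.0562 and 0.0796, edgeR). In pho92Δ UGA1 had 255, 236 and 230.3 CPM, against 216, 167 and 188 CPM in WT, again without overlap.

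The ratio of UGA2 to UGA1 differed between strains. UGA2 CPM per UGA1 CPM was 0.569 ± 0.022 in W177A, 0.539 ± 0.088 in L38P, 0.424 ± 0.047 in Δ35–42, 0.381 ± 0.029 in L35A and 0.37 ± 0.022 in I39A, against 0.358 ± 0.028 in CUP1-PHO92 (SD, n = 3 each). It was 0.503 ± 0.035 in pho92Δ, against 0.353 ± 0.04 in WT (SD, n = 3 each). The lowest ratios in W177A and L38P, 0.543 and 0.481, were above the highest in CUP1-PHO92, 0.388. The lowest in Δ35–42 was 0.389, and the ranges of L35A and I39A overlapped that of CUP1-PHO92. These ratios were not tested.

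The other GABA genes, UGA3 and UGA4, passed the threshold against CUP1-PHO92 in L38P only among the mutants. UGA3, the activator, had 156, 144 and 119 CPM in L38P, against 101, 83.2 and 93.5 CPM in CUP1-PHO92, a log2 fold change of 0.59 with an SE of 0.132 (adjusted p 0.00133, edgeR). In the other 4 mutants its log2 fold change against CUP1-PHO92 was 0.07 to 0.15 and was not past the threshold (adjusted p 0.432 to 0.743, edgeR). Against pho92Δ, which had 109, 152 and 130 CPM, UGA3 had a log2 fold change of -0.49 in CUP1-PHO92 (SE 0.132, adjusted p 0.00782) and of -0.42 in L35A (SE 0.131, adjusted p 0.0277; edgeR). UGA4, the GABA permease, had 98.9, 63.7 and 65.3 CPM in L38P, against 169, 124 and 94.2 CPM in CUP1-PHO92. UGA4 fell in L38P: its log2 fold change was -0.76 (SE 0.203, adjusted p 0.00530, edgeR), although L38P replicate 1 lay above CUP1-PHO92 replicate 3. Its log2 fold change was -0.34 to -0.12 in the other 4 mutants, not past the threshold (adjusted p 0.233 to 0.806, edgeR). Thus in L38P the transcripts of the dehydrogenase and the activator were higher and that of the permease was lower. Early meiotic transcripts, lower in L38P as given above, moved with these results: 9 of 9 were called lower in L38P than in CUP1-PHO92. So did 10 of 10 middle meiotic transcripts, whose summed level was 176 to 612 CPM in L38P, against 1356 to 4208 CPM in CUP1-PHO92. In the comparisons with pho92Δ the middle meiotic genes differed too. They summed to 2635 to 9342 CPM in L35A, 2681 to 4371 CPM in I39A and 1356 to 4208 CPM in CUP1-PHO92, against 642 to 978 CPM in pho92Δ. Of the 10, 9 were called higher in L35A, 6 in I39A and 6 in CUP1-PHO92 than in pho92Δ. Against the 1356 to 4208 CPM of CUP1-PHO92, they summed to 546 to 1977 CPM in W177A and 785 to 1785 CPM in Δ35–42. Their median log2 fold change against CUP1-PHO92 was -1.11 in W177A, -1.36 in Δ35–42 and 0.91 in L35A, with none of the 10 called. The part of the meiotic genes in these results, and in those of UGA1, UGA2, GAP1 and GAT1, was not tested.

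**Figure D2:**
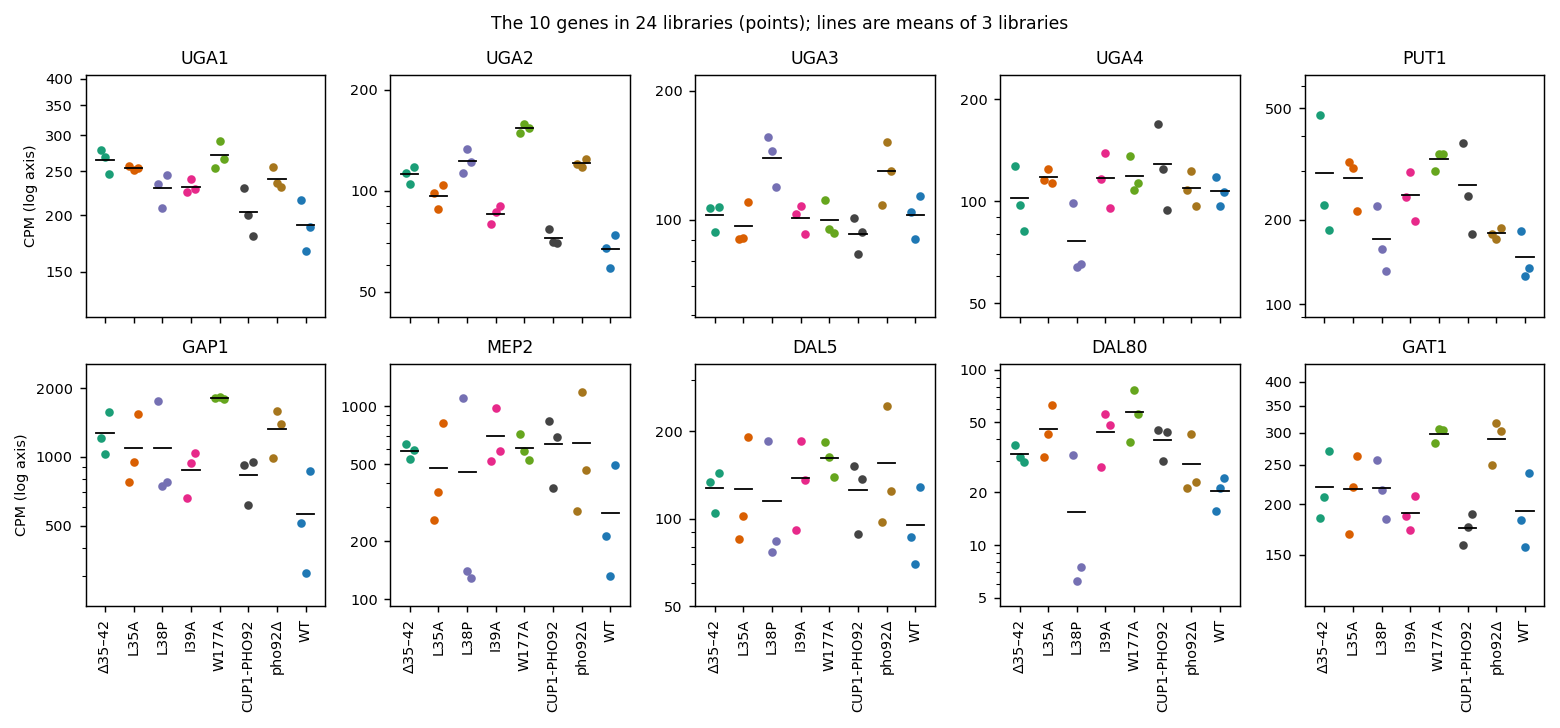
CPM (log axis) of the 10 genes in each library by strain group, with a line at the mean of 3 libraries. UGA1 and UGA2 form tight groups, whereas MEP2 in L38P spans 129 to 1099 CPM and DAL80 in L38P spans 6.26 to 32.8 CPM.

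PUT1, proline oxidase, which starts the breakdown of proline in mitochondria, passed the threshold in none of the comparisons of mutants with CUP1-PHO92. It had 224, 158 and 131 CPM in L38P, against 375, 243 and 178 CPM in CUP1-PHO92, a log2 fold change of -0.64 with an SE of 0.298 (adjusted p 0.0882, edgeR). In pho92Δ it had 179, 171 and 187 CPM, a narrow range that lay below all 3 libraries of L35A (215 to 322 CPM), I39A (199 to 295 CPM) and W177A (298 to 345 CPM). With adjusted p of 0.123, 0.280 and 0.159 in that order (edgeR), these differences from pho92Δ were not past the threshold. How many of all features have ranges as separate was not computed. They passed it in a fit of only the libraries compared (adjusted p 0.0270, 0.0276 and 0.0181, edgeR). W177A, treated as paired by number with pho92Δ, also passed it with the replicate block, fitted to all 24 libraries (log2 fold change 0.89, adjusted p 0.0444, edgeR). In WT it had 183, 126 and 134 CPM.

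Of the permeases, GAP1 passed the threshold in W177A against CUP1-PHO92. Gap1 is the general amino acid permease. It had 1816, 1822 and 1786 CPM in W177A, against 922, 616 and 948 CPM in CUP1-PHO92, a log2 fold change of 1.13 with an SE of 0.355 (adjusted p 0.0239, edgeR). The 3 W177A libraries lay close together, and above every library of the other 7 groups. The call was lost without CUP1-PHO92 replicate 2 (adjusted p 0.0964) or W177A replicate 3 (adjusted p 0.0538; edgeR). In Δ35–42 GAP1 had 1207, 1028 and 1574 CPM, all above CUP1-PHO92, but the log2 fold change of 0.62 (SE 0.352) was not past the threshold (adjusted p 0.210, edgeR). In pho92Δ it had 991, 1583 and 1391 CPM, against 512, 309.8 and 868 CPM in WT.

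MEP2, which encodes the high-affinity ammonium permease, had no call in any of the 13 comparisons. It varied by up to 9.17 times over the 24 libraries and by 8.53 times within L38P, where replicate 1 had 1099 CPM and replicates 2 and 3 had 140.1 and 129 CPM. In pho92Δ it had 287, 1181 and 467 CPM, against 212, 132 and 497 CPM in WT, so those ranges overlapped. DAL5, an allantoate and ureidosuccinate permease, was also without a call, with log2 fold changes of 0.01 to 0.36 in 4 mutants against CUP1-PHO92 and -0.12 in L38P. Among the 6 CUP1 strains its means lay between 116 ± 61.1 CPM in L38P and 162 ± 22.3 CPM in W177A, with 126 ± 33.3 CPM in CUP1-PHO92 (SD, n = 3 each). DAL5 and MEP2 were also the members with the highest adjusted p in the test for any difference among the 6 CUP1 strains, 0.866 and 0.943 (edgeR).

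The GATA factors differed from each other. GAT1, an activator, had 282, 307 and 305 CPM in W177A, against 158, 176 and 189 CPM in CUP1-PHO92, a log2 fold change of 0.77 with an SE of 0.174 (adjusted p 0.00316, edgeR). In pho92Δ it had 250.3, 317 and 303 CPM, which was above all 3 libraries of CUP1-PHO92 and of WT (183, 157 and 238 CPM). The log2 fold change was -0.73 in CUP1-PHO92 against pho92Δ (SE 0.174, adjusted p 0.00333) and -0.61 in I39A against pho92Δ (SE 0.173, adjusted p 0.0192; edgeR). Middle meiotic genes moved with both comparisons, as given above. In W177A against CUP1-PHO92 their median log2 fold change was -1.11, with none of the 10 called. Their part in the GAT1 values was not tested. The I39A call was lost without I39A replicate 1 or 2 or pho92Δ replicate 2 or 3 (adjusted p 0.0523 to 0.0790, edgeR). Δ35–42, L35A and L38P lay between, at log2 fold changes of 0.32 to 0.34 against CUP1-PHO92 that were not past the threshold (adjusted p 0.129 to 0.192, edgeR).

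DAL80, a repressor, had 32.8, 6.26 and 7.47 CPM in L38P, against 45.0, 30.3 and 44.1 CPM in CUP1-PHO92. Replicates 2 and 3 of L38P were the lowest 2 of all 24 libraries, and replicate 1 lay inside the CUP1-PHO92 range. The log2 fold change was -1.37 (SE 0.469, adjusted p 0.0240, edgeR). The call was lost without the batch B libraries of the table header, of which L38P replicate 2 is one (-0.97, adjusted p 0.119), in a fit of only the libraries compared (adjusted p 0.0753), and without L38P replicate 2 or 3 or CUP1-PHO92 replicate 1 or 3 (adjusted p 0.0558 to 0.122; edgeR). In W177A DAL80 had 38.7, 77.0 and 55.8 CPM, a log2 fold change of 0.52 against CUP1-PHO92 that was not past the threshold (adjusted p 0.410, edgeR).

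**Figure D3:**
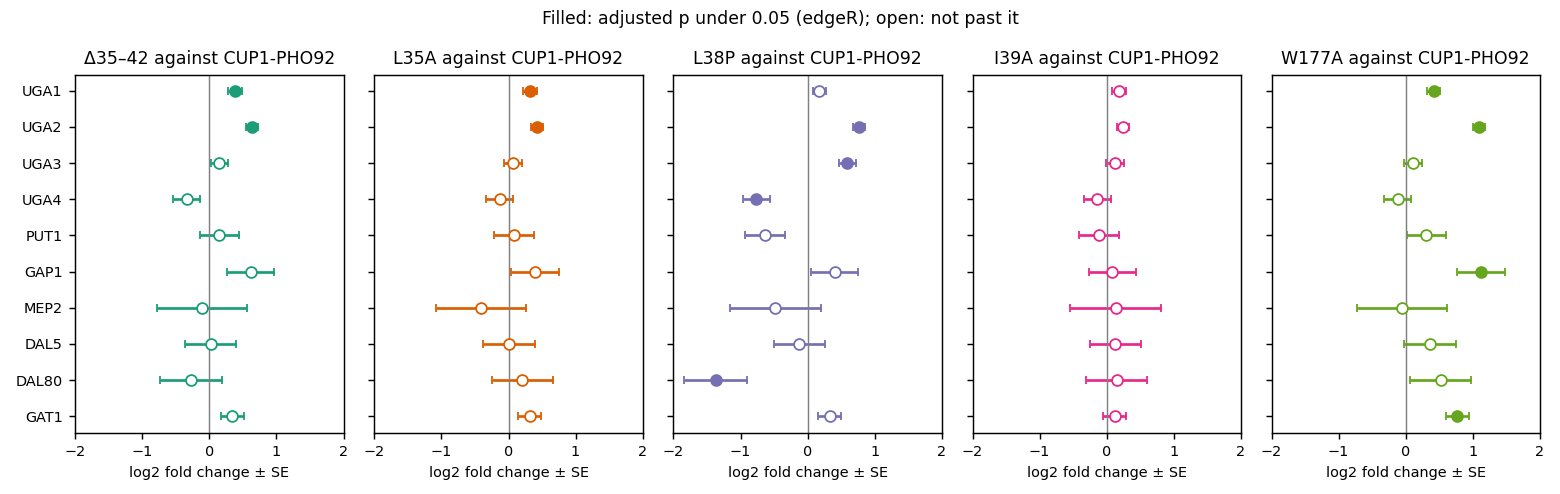
Log2 fold change ± SE of the 10 genes for each mutant against CUP1-PHO92 (edgeR, 3 libraries per group); filled points have an adjusted p under 0.05. UGA2 is filled in Δ35–42, L35A, L38P and W177A, at 0.42 to 1.09; no point is filled in I39A.

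Counted over the 10 members against CUP1-PHO92, W177A had 4 higher and none lower (GAP1, GAT1, UGA1, UGA2), where 27.9% of all features were called, 14.9% higher and 13.0% lower. L38P had 2 higher (UGA2, UGA3) and 2 lower (DAL80, UGA4), where 44.0% of all features were called, 23.1% higher and 20.9% lower. Δ35–42 had 2 higher (UGA1, UGA2) and none lower, where 21.8% of all features were called, 11.9% higher and 9.97% lower. L35A had the same 2 higher and none lower, where 22.6% of all features were called, 11.3% higher and 11.4% lower. The shares of members called were 40%, 40%, 20% and 20% in this order, so those of L38P, Δ35–42 and L35A were near or below the background. UGA2, chosen by its level in these data, is among the genes called in each, so no excess is read from the share of W177A. UGA2 also enters the counts and medians that follow. I39A had none by edgeR, where 0.0527% of all features were called, all of them higher, and none by DESeq2, where 0.471% were called. At an unadjusted p under 0.05 it had 1 of the 10 members, beside 13.0% of all features. The median log2 fold change of the members was 0.39 in W177A, 0.03 in L38P, 0.15 in Δ35–42, 0.14 in L35A and 0.13 in I39A, beside medians over all features of -0.01, 0.04, -0.02, -0.01 and -0.00. For any difference among the 6 CUP1 strains, 6 of the 10 were called (UGA1, UGA2, UGA3, UGA4, DAL80, GAT1), and 60.3% of all features were.

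Against pho92Δ, no member was called in Δ35–42, L38P or W177A by edgeR, where 0.105%, 29.4% and 1.35% of all features were called; the higher calls were 0.0527%, 15.3% and 0.351% and the lower calls 0.0527%, 14.1% and 1.00%. At an unadjusted p under 0.05 there were 3, 2 and 4 of the 10 members in that order, beside 10.2%, 41.6% and 13.7% of all features. DESeq2 called 0, 2 and 1 members, beside 1.44%, 31.2% and 3.53% of all features. W177A and pho92Δ were treated as paired by replicate number, a pairing inferred from the correlation of their libraries in these data. There the fit with the replicate block called 2 members, UGA2 (0.35) and PUT1 (0.89), both higher on the log2 scale, and 2.77% of all features. That block was fitted to all 24 libraries, so it also assumes pairing by number in groups not treated as paired. L35A had 2 lower (UGA2, UGA3), where 21.0% of all features were called, 9.86% higher and 11.2% lower. L35A and pho92Δ were treated as paired in the same way. With the replicate block GAT1 was also lower in L35A (log2 fold change -0.43, adjusted p 0.0465, edgeR). Without the block its log2 fold change was -0.41 (adjusted p 0.0927, edgeR). I39A had 2 lower (UGA2, GAT1), where 20.8% of all features were called, 10.4% higher and 10.5% lower. UGA3 in L35A was lost without pho92Δ replicate 2 or 3 or L35A replicate 1 or 2 (adjusted p 0.0712 to 0.149, edgeR), and in a fit of only the libraries compared (adjusted p 0.0638, edgeR). CUP1-PHO92 had 3 lower than pho92Δ (UGA2, UGA3, GAT1), where 34.6% of all features were called, 16.8% higher and 17.8% lower. In these comparisons with pho92Δ, UGA2 is a description. Against WT, CUP1-PHO92 had no member called by edgeR, where 6.93% of all features were called, 3.93% higher and 3.00% lower. DESeq2 called 1 member and 10.1% of all features, and 2 of the 10 members had an unadjusted p under 0.05, beside 24.0% of all features. In pho92Δ against WT, the contrast behind the choice of UGA2, 4 members were higher (GAP1, GAT1, UGA1, UGA2), where 17.7% of all features were called, 8.18% higher and 9.48% lower, and nothing is read from that count. Of the 10 middle meiotic genes 9 were called lower there, with sums of 642 to 978 CPM in pho92Δ, against 2373 to 12130 CPM in WT, and their part in the members' values was not tested. The comparisons that share pho92Δ or CUP1-PHO92 libraries are not independent of each other.

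The members differed widely in their spread within groups. The SD of log2 CPM among the 3 libraries of a group, pooled over the 8 groups, was 0.101 for UGA2 and 0.117 for UGA1, beside a median of 0.17 over all features. It was 0.9 for MEP2, 0.613 for DAL80, 0.508 for DAL5, 0.469 for GAP1 and 0.394 for PUT1. MEP2 varied more within groups than 99.2% of features, and DAL80 more than 97.1%. For UGA2, the SD of the 8 group means was 4.06 times its SD within groups, a higher ratio than in 99.8% of features; UGA2 was chosen for a difference between groups, so this is a description. For MEP2 and DAL5 the ratio was 0.63 and 0.489. UGA1 and UGA2, without a GATAAG in the window shown, had the smallest within-group spread of the 10. The 5 with the largest each had at least 1, but so did 7 of the 10 members. Whether motif and spread are related was not tested. UGA4, also without one, had 0.265, GAT1, with 4, had 0.226, and UGA3, with 1, had 0.166.

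**Figure D4:**
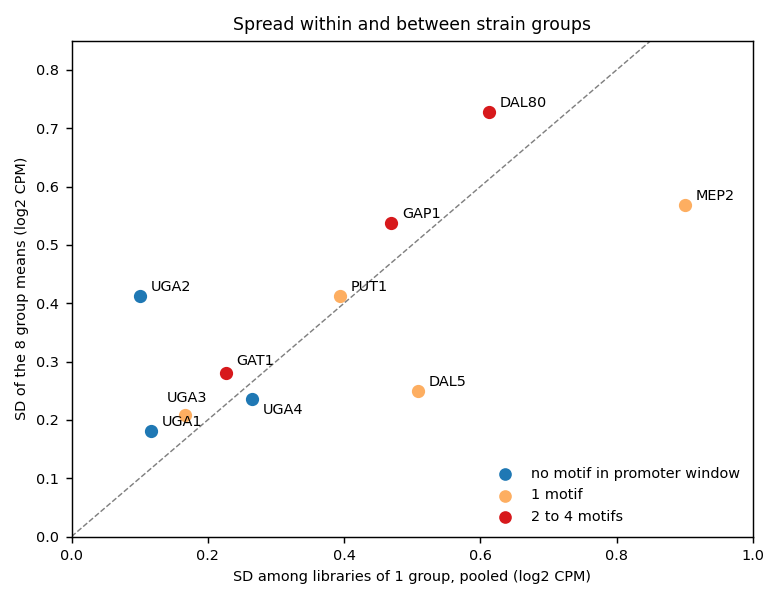
SD among libraries of a group, pooled over 8 groups (horizontal), and SD of the 8 group means (vertical), both of log2 CPM, for the 10 genes, coloured by the number of GATA-factor motifs in the promoter window; the dashed line marks equal spread. UGA2 lies far above the line (0.101 against 0.412) and MEP2 far below it (0.9 against 0.568).

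GAP1, MEP2, DAL5 and DAL80 shared their highest or lowest library in some groups. All 4 had their highest value in the same library in 4 of the 8 groups: L38P replicate 1, L35A replicate 3, pho92Δ replicate 2 and WT replicate 3. GAT1 and UGA3 also peaked in each of these libraries, so the shared peak is not particular to the 4 genes. The share of all features that peaked there was not computed. Over all features tested, 35.7% of the within-group variance lay on a single pattern across libraries. Whether the 4 genes follow that pattern was not tested. GAP1, MEP2, DAL5 and DAL80 all had their lowest value in the same library in 4 groups, L35A, I39A, CUP1-PHO92 and pho92Δ. The share of all features lowest there was not computed either. In L38P replicate 1 the values were 1761 CPM for GAP1, 1099 for MEP2, 186 for DAL5 and 32.8 for DAL80. Replicates 2 and 3 of L38P had 745 and 779 CPM for GAP1 and 77.0 and 83.7 CPM for DAL5. The fold changes in L38P against CUP1-PHO92 therefore moved with the library left out, and are given as values only, since replicate 1 was singled out by its own levels. For MEP2 the log2 fold change was -2.24 without L38P replicate 1, -0.05 without replicate 2 and -0.04 without replicate 3. For DAL80 it was -2.54, -0.99 and -1.04 in that order, and for UGA2, which did not follow these genes, it was 0.81, 0.70 and 0.77. The library with the highest sum of the 4 genes was the one with the lowest middle meiotic sum in 4 of the 8 groups. In L38P, pho92Δ and I39A it was instead the one with the highest middle meiotic sum, at 612, 978 and 4371 CPM. Whether these sums are related was not tested.

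**Figure D5:**
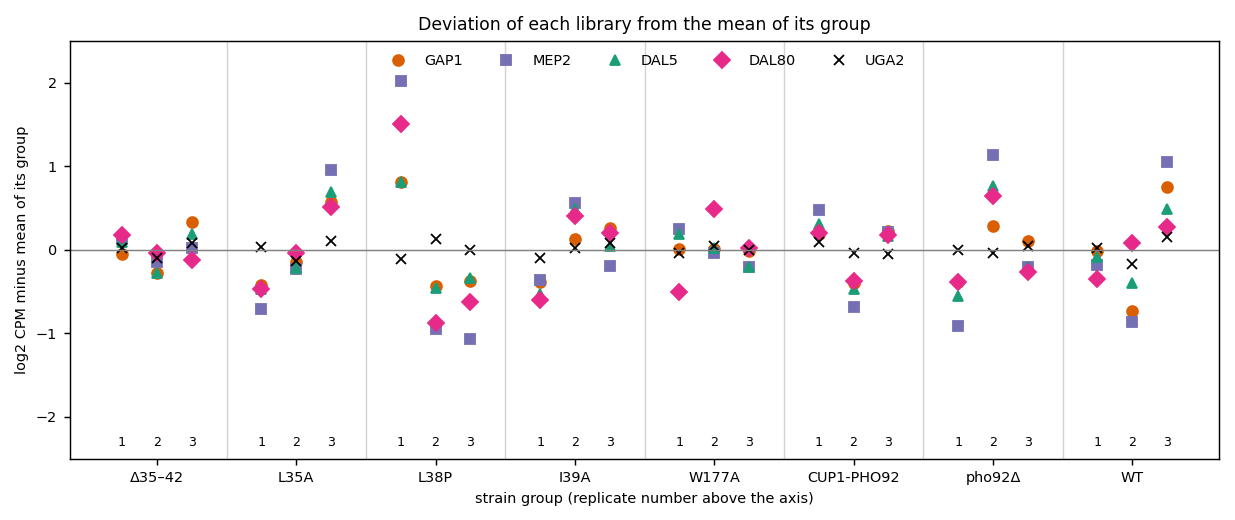
Log2 CPM of GAP1, MEP2, DAL5, DAL80 and UGA2 in each library minus the mean of its group, by strain group, with replicate numbers above the axis. The first 4 genes are all highest in L38P replicate 1, while UGA2 stays near 0 in every library.

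Among 28 other genes of nitrogen use (7 regulators, 7 transporters and 14 enzymes), few differed from CUP1-PHO92. In W177A 2 were higher and 1 lower, in Δ35–42 2 higher and 2 lower, in L35A 2 higher and 1 lower, in L38P 4 higher and 4 lower, and in I39A none. The called share was 10.7%, 14.3%, 10.7%, 28.6% and 0% in that order, below the share of all features in each comparison. The higher genes in W177A, L35A and Δ35–42 were PUT3 and GDH2. PUT3, the activator of the proline genes, had 529 ± 44.1 CPM in W177A, 477 ± 41.5 in L35A and 426 ± 51.6 in Δ35–42, against 320.2 ± 46 CPM in CUP1-PHO92 (SD, n = 3 each). GDH2, the NAD-dependent glutamate dehydrogenase, had 1448 ± 97.9 CPM in W177A, 1609 ± 345 in L35A and 1403 ± 106 in Δ35–42, against 987 ± 125 CPM in CUP1-PHO92 (SD, n = 3 each). GDH2 was also lower in CUP1-PHO92 than in WT, which had 1634 ± 119 CPM (SD, n = 3), by a log2 fold change of -0.73 (adjusted p 0.00476, edgeR).

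CAR1, the arginase that opens arginine breakdown, was lower in Δ35–42, L35A, L38P and W177A than in CUP1-PHO92, by log2 fold changes of -0.72 to -0.44 (adjusted p 0.000204 to 0.0196, edgeR). It had 2018 ± 174 CPM in Δ35–42, 2155 ± 125 in L35A, 1767 ± 410 in L38P and 2020 ± 185 in W177A, against 2920 ± 120 CPM in CUP1-PHO92 (SD, n = 3 each). WT had 1673 ± 66.6 CPM (SD, n = 3), so CUP1-PHO92 was above WT as well, by 0.80 on the log2 scale (adjusted p 0.00124, edgeR). GLN1, glutamine synthetase, was lower in Δ35–42, at 508 ± 41.6 CPM, against 716 ± 65.4 CPM in CUP1-PHO92 (SD, n = 3 each; log2 fold change -0.50, adjusted p 0.0157, edgeR). The 4 largest changes in L38P were DAL4, the allantoin permease (-1.26), DAL7, a malate synthase (0.98), GLN3 (0.76) and CAR1.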

How the data were processed

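Libraries were directional, poly(A)-selected and paired-end, per the labels' protocols. The deposited table holds raw counts per feature as whole numbers, with no normalization by the authors visible in the values; whether estimated counts were rounded before deposit is not given. The submitters' processing notes name STAR 2.7.10a, RSEM 1.3.1 and DESeq2 1.48.1 without roles; the genome build, annotation and strand setting are not given in the sources used here. R64 of RefSeq supplied symbols, coding lengths and promoters (5620 of 6157 features matched).

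Counts were analysed with R 4.3.3, edgeR 4.0.16, limma 3.58.1 and, as an alternative, DESeq2 1.42.0. After TMM scaling and filterByExpr at its defaults, 5698 features remained and 459 were removed. All 24 libraries entered a single quasi-likelihood model with 1 coefficient per strain group (16 residual degrees of freedom). Benjamini-Hochberg adjustment ran over all features within each of 13 comparisons and of a joint test of the 5 mutants, with a threshold of 0.05. SE is the log2 fold change divided by the root of F. The method was checked on simulated counts. At these depths 3 counts correspond to 0.0828 to 0.179 CPM, which covers counting error only. No 2 replicates agreed within sampling noise.

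Groups came from the titles. Deviations from group means of same-numbered libraries correlated above 0.1 for every pair in 5 comparisons: Δ35–42, L35A and I39A against CUP1-PHO92, and L35A and W177A against pho92Δ. Those comparisons were treated as paired by number when giving values with the replicate block. The block was fitted to all 24 libraries at once, so it assumes shared replicate effects also in groups not treated as paired. The pairing was inferred from these correlations only. L35A passed 0.1 with both CUP1-PHO92 and pho92Δ, although CUP1-PHO92 and pho92Δ did not pass it with each other (lowest correlation -0.107). The main model has no block. The members and gene lists were chosen with earlier results of these data known. All 10 members are described, whatever their values; other nitrogen genes are named if called in a mutant against CUP1-PHO92, at most 4 per comparison, and GDH2 and CAR1 against WT were added after their values were seen. Alternatives were RLE scaling, no filter, the block, a within-group covariate, only the libraries compared, DESeq2, leaving out the batch B libraries and leaving out each library.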

Additional observations from a re-analysis of the deposited data

How the results depend on the processing

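Of 16 tested log2 fold changes of members past the threshold, under 208 alternative values in all, none reversed, 185 kept an adjusted p under 0.05 and 23 lost it; 10 of the 16 never lost it. The 7 given as description (pho92Δ against WT, and UGA2 against pho92Δ) did not reverse in 91 alternative values and moved by less than the spread between replicates, but 16 of the 91 had an adjusted p not under 0.05, and 3 of the 7 results had none such. UGA2 against CUP1-PHO92 was called in Δ35–42, L35A, L38P and W177A under every alternative run. Numbers of members called moved by over 1.5 times as follows. Fitting only the libraries compared gave 1 in pho92Δ against WT (4 in the fit to all libraries), 1 in Δ35–42 and 1 in L35A against CUP1-PHO92 (2 each), 4 in I39A against pho92Δ (2), and 1 in W177A against pho92Δ (0); fewer samples enter that fit. The replicate block gave 1 in CUP1-PHO92 against WT (0), 1 in L38P against pho92Δ (0) and 2 in W177A against pho92Δ (0). Among the 5 comparisons treated as paired by number, the block changed 3 calls, UGA2 and PUT1 in W177A and GAT1 in L35A, all against pho92Δ. In the others, not treated as paired, it added PUT1 in L38P against CUP1-PHO92, UGA1 in CUP1-PHO92 and UGA3 in I39A against pho92Δ. These came besides the single calls above (UGA4 in L38P and PUT1 in CUP1-PHO92). DESeq2 gave 1, 2 and 1 in CUP1-PHO92 against WT and in L38P and W177A against pho92Δ. The within-group covariate, made from the same residuals, gave 2 in L38P against pho92Δ and 1 in W177A against pho92Δ. For W177A against pho92Δ, RLE scaling and leaving out the batch B libraries also gave 1. The cause was not tested.

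Leaving out 1 library at a time gave 1 to 4 members in pho92Δ against WT, 0 in CUP1-PHO92 against WT, 3 to 4 in CUP1-PHO92 against pho92Δ, and, against CUP1-PHO92, 1 to 2 for Δ35–42 and for L35A, 3 to 6 for L38P, 0 for I39A, and for W177A 3 to 4. Against pho92Δ the same gave 0 for Δ35–42, 0 to 3 for L35A, 0 to 4 for L38P, 1 to 3 for I39A, and for W177A 0 to 1. In the test of any difference among the 6 CUP1 strains it gave 4 to 7; there the block gave 7, of which 5 were among the 6. The 4 in L38P against pho92Δ, seen without L38P replicate 1, were DAL80, GAT1, MEP2 and UGA4, all lower. Every member had at least 179 counts per library; what limits the calls was not tested.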

Other observations

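The genes whose pattern over the 8 group means was most like that of UGA2 were RAD5, ENT3, PIB2, SLA2 and YMD8. Likeness was the root mean square difference of centred mean log2 CPM, which was 0.0779 for RAD5, 0.0968 for ENT3, 0.112 for PIB2, 0.115 for SLA2 and 0.118 for YMD8, beside a median of 0.422 over 5197 features with at least 10 CPM. RAD5 encodes a DNA helicase and ubiquitin ligase of damage tolerance. It had 77.6 ± 6.83 CPM in W177A and 48.4 ± 4.42 CPM in I39A, against 40.5 ± 1.93 CPM in CUP1-PHO92 (SD, n = 3 each). ENT3, an epsin-related clathrin adaptor, had 156 ± 8.97 CPM in W177A, 136 ± 7.91 in L38P, 128 ± 7.19 in Δ35–42, 109 ± 3.49 in L35A and 102 ± 4.92 in I39A, against 94.0 ± 8.92 CPM in CUP1-PHO92 (SD, n = 3 each). PIB2, which encodes a vacuolar regulator of TORC1, had 153 ± 6.55 CPM in W177A and 108 ± 3.95 CPM in I39A, against 87.2 ± 2.37 CPM in CUP1-PHO92 (SD, n = 3 each). These genes were picked for their likeness, so no test is given.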
